A study of Homo sapiens with 18 samples.

Results

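The 9 genes described here encode chemokines that epithelial cells make besides the neutrophil attractants CXCL1, CXCL2, CXCL3 and CXCL8. They were taken by gene symbol, with no use of their measured values, as CXCL5, CXCL6, CXCL10, CXCL11, CXCL14, CXCL16, CX3CL1, CCL20 and CCL28. They were read by 11 of the 50599 probes and made up 9 of the 36204 gene names on a 1-colour expression microarray. HT29 is a human colorectal cancer cell line, and HTOXAR3 is a single subline of it, selected by growth in rising doses of the platinum drug oxaliplatin (OXA) until resistant. HT29 cells were left untreated, given OXA at 10 µM, or given OXA at 10 µM together with Curcumin, a polyphenol of turmeric, at 10 µM. HTOXAR3 cells were left untreated, given OXA at 30 µM, or given OXA at 30 µM together with Curcumin at 10 µM. Treatments lasted 24 h and each of the 6 groups held 3 replicates labelled as biological, which made 18 arrays. The treated arms of the lines therefore differed in OXA dose as well as in line, and these cannot be told apart. Curcumin alone was not analysed here.

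Chemokines are small secreted or membrane-held proteins that direct white blood cells along concentration gradients through receptors with several membrane passes. CXCL10 and CXCL11 are induced by interferons and attract activated T cells through CXCR3, while CXCL5 and CXCL6 attract neutrophils through CXCR2. In the gut, CCL20 draws cells bearing CCR6 and CCL28 draws antibody-secreting cells bearing CCR10, and many of these genes are known targets of NF-kB, a family of transcription factors activated by inflammatory signals.

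CXCL10, CXCL11 and CXCL6, the 3 genes that shared a detection pattern across treatments, each hold a match to the NF-kB consensus in the promoter. CXCL5 and CCL20, which did not share that pattern, hold one as well, and its part in the pattern was not tested. The stretches of promoter with a match are shown because NF-kB pathway genes were read beside the members. They come from RefSeq (GRCh38.p14) and read 5′ to 3′ on the gene's strand. Capitals mark the matches to the NF-kB consensus and, first in CXCL10, the core of the interferon-stimulated response element, GAAA and GAAA 2 bases apart. CXCL10 lies at chr4:76023590-76023738 (minus strand, 241 to 93 bases before the start), CXCL11 at chr4:76036117-76036166 (minus strand, 96 to 47 bases before), CXCL6 at chr4:73836568-73836618 (plus strand, 110 to 60 bases before), CXCL5 at chr4:73998738-73998788 (minus strand, 111 to 61 bases before) and CCL20 at chr2:227813743-227813792 (plus strand, 99 to 50 bases before).
CXCL10: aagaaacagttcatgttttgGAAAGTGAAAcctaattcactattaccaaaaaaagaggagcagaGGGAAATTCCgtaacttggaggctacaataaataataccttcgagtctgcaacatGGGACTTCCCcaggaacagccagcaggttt
CXCL11: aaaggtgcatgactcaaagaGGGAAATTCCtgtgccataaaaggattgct
CXCL6: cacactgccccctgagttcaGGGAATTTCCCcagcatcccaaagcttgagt
CXCL5: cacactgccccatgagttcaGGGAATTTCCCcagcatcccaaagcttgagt
CCL20: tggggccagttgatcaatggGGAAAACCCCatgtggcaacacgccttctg
The CXCL6 and CXCL5 stretches were identical at 50 of 51 bases, and in each the capitals hold overlapping NF-kB matches on both strands. Promoter sequence was matched for 7 of the 9 genes. Within 250 bases before the start, on either strand, the NF-kB consensus was found in 5 of these 7, against 9.96% of the 35116 promoters searched. The interferon-stimulated core was found in CXCL10 (3.02% of all promoters), and the AP-1 element TGANTCA in CXCL11 and CXCL14 (6.57%). A match is a run of letters and was not measured as a bound site.

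Levels below are normalised log2 intensities, differences are on the same log2 scale, and means are given with the SD over 3 arrays. A difference was called when its Benjamini-Yekutieli (BY) adjusted p in limma was below 0.05 and its fold above 1.2. On each array 52.4% to 63.6% of probes were well above background, and the OXA arrays lay at 62.3% to 63.2%. CXCL5, CCL20, CXCL16 and CCL28 were well above background on all 18 arrays, CX3CL1 on 10, CXCL6, CXCL10 and CXCL11 on 7 each, and CXCL14 on 0, so that 8 of the 9 passed on at least 3 arrays, as did 23817 of all 36204 names. Of 11 colon epithelial markers 9 were well above background on all 18 arrays, the exceptions being CDX2 (10 arrays) and CDH17 (5 arrays). Without treatment LGALS4 (-2.08), VIL1 (-1.61) and CDH17 (-1.51) were called lower in HTOXAR3 than in HT29. VIL1 was called higher in HT29 with OXA (1.05) and the combination (1.05). CDH1 and KRT19 were called higher with the combination in HT29 (0.49, 0.32) and HTOXAR3 (0.32, 0.29). In HTOXAR3 KRT20 was called higher and LGALS4 lower with the combination (0.53, -0.61) and on adding Curcumin (0.52, -0.62). KRT19 also rose there on adding Curcumin (0.34). Of 7 leukocyte markers measured 5 were above background on all 18 arrays, PTPRC among them, with a summed log2 level of 11.68 to 12.54, lowest in HT29 after OXA (11.68 to 11.94). Single markers moved within that sum in both directions. With OXA CD14 was called lower in HT29 (-0.92) and HTOXAR3 (-0.58) and ITGAM higher in HTOXAR3 (0.56). With the combination CD68 was called higher in HT29 (1.15) and HTOXAR3 (1.44) and CD14 lower in HTOXAR3 (-0.55). On adding Curcumin CD68 was called higher in HT29 (1.19) and HTOXAR3 (1.4) and CD14 higher in HT29 (0.52), and ITGAM was 1.06 higher in HTOXAR3 without treatment, also called. Of 6 fibroblast markers 0 were above background on all 18 arrays, with COL1A2 and COL3A1 on 0 (summed level 6.30 to 7.56). Of 5 endothelial markers VWF and CDH5 were above it on all 18 (8.27 to 8.86). COL1A1 was called higher with OXA in HT29 (1.46). TEK was called higher in untreated HTOXAR3 than in HT29 (2.16). It was called lower with OXA in HT29 (-0.96) and HTOXAR3 (-1.05) and with the combination in HTOXAR3 (-1.32). COL1A1 and TEK were each well above background on 10 of the 18 arrays. The part of these marker levels in the results was not tested.

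Few of the 9 chemokines were called in any comparison. Without treatment, HTOXAR3 had less CCL28 mRNA than HT29, the single member called of 9 where 11.6% of all names were. CXCL6 rose with OXA in HT29 (1 of 9, against 16% of all names) and CXCL10 rose with OXA in HTOXAR3 (1 of 9, against 10.3%). CXCL16 rose with the combination in HTOXAR3 (1 of 9, against 17.5%), and 0 of 9 were called for the combination in HT29 (against 18.6%), where 2 had an unadjusted p below 0.05 (34.9% of all names did) and 1 passed with Benjamini-Hochberg (BH) adjustment in limma. For Curcumin added to OXA, CXCL10 fell in HTOXAR3 (1 of 9, against 8.84%) and 0 of 9 were called in HT29 (against 5.52%), where 3 had an unadjusted p below 0.05 (22.2% of all names did) and 2 passed with BH adjustment. With BY adjustment the shares called among the 9 were near or below those of all names. With BH adjustment 2 of 9 were called between the untreated lines (against 17% of all names), 3 after OXA in HT29 (22%), 3 after OXA in HTOXAR3 (16.6%), 1 after the combination in HT29 (25%), 2 after it in HTOXAR3 (23.5%), 2 on adding Curcumin in HT29 (10.2%) and 4 on adding it in HTOXAR3 (14.2%). Each array read the RNA of a whole culture, so fewer expressing cells and less RNA per cell cannot be told apart. Median differences of the 9 after OXA were 0.29 in HT29 and 0.26 in HTOXAR3, beside -0.01 and 0.01 over all names, and the medians on adding Curcumin were 0.04 and -0.26, beside -0.02 in each line.

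CXCL10 and CXCL11, which are among the ligands of CXCR3, were measured above background after OXA and near or below it otherwise. The CXCL10 level in HT29 replicates 1, 2 and 3 was 3.99, 4.15 and 4.46 untreated, 4.69, 5.28 and 5.32 after OXA, and 4.60, 4.35 and 4.52 after OXA with Curcumin. In HTOXAR3 it was 4.74, 4.15 and 4.21 untreated, 5.48, 5.61 and 5.15 after OXA, and 4.59, 3.99 and 3.89 after OXA with Curcumin. In both lines every OXA array lay above every array of the other treatments, and apart from the OXA arrays only HTOXAR3 untreated replicate 1 was well above background. The group means were 4.20 ± 0.24, 5.09 ± 0.35 and 4.49 ± 0.13 in HT29 and 4.37 ± 0.32, 5.41 ± 0.24 and 4.15 ± 0.38 in HTOXAR3 (SD, n = 3).

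CXCL10 rose with OXA in HTOXAR3 (difference 1.04, SE 0.23, BY-adjusted p = 0.0466, limma). Only 1 of the 3 untreated arrays measured it above background, so the 2.06-fold that this difference gives rests on signals that were mostly dim. Where a group had no array well above background, a fold is a lower bound, set by the mean of the brighter group against the mean over the dim arrays of the probe's own signal or the lowest signal well above background, whichever was higher. In HT29 CXCL10 was at least 1.62-fold higher after OXA and not called (difference 0.89, SE 0.23, adjusted p = 0.0937), though it was called without OXA replicate 1 (1.10, 0.0329). CXCL10 fell at least 2.08-fold on adding Curcumin to OXA in HTOXAR3 (difference -1.26, SE 0.23, adjusted p = 0.014). These sizes, bounds included, depend on the background correction: over offsets of 16 and 50 and the processed signal, the HTOXAR3 difference was 0.67, 0.39 and 1.75 after OXA and -0.79, -0.45 and -2.91 on adding Curcumin, each still called. For Curcumin in HT29 the difference was -0.60, at least 1.47-fold lower, with an adjusted p of 1. In HTOXAR3 the OXA call was lost without untreated replicate 2 (adjusted p = 0.253) or 3 (0.229). It was lost without OXA replicate 1 (0.199), 2 (0.257) or 3 (0.0573) as well. With 75th percentile scaling (0.86, 0.261) and with replicate number as a block (1.04, 0.0947) it was also lost. The Curcumin call was lost without OXA replicate 1 (0.0731) or 2 (0.0875) and without combination replicate 2 (0.0797) or 3 (0.0992), and with only the 6 arrays compared in the fit the adjusted p was 0.324 for the OXA call and 0.29 for the Curcumin call.

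A separate probe of CXCL10 was read as a check, chosen after the values were seen. The brighter probe reads chr4:76942934-76942993 and the other chr4:76943520-76943579 (GRCh37). The other probe was well above background on the 6 OXA arrays and no others, with HT29 means of 4.04, 5.27 and 4.08 and HTOXAR3 means of 4.42, 5.40 and 4.27 for untreated, OXA and combination. With it the OXA difference in HT29 was called (1.22, at least 1.86-fold, adjusted p = 0.0151) and that in HTOXAR3 was not (0.97, at least 1.53-fold, adjusted p = 0.109). The lower level on adding Curcumin was called in both lines, at least 1.86-fold in HT29 (-1.19, adjusted p = 0.0473) and at least 1.87-fold in HTOXAR3 (-1.13, adjusted p = 0.0477). The probes differed in which line passed the threshold and not in direction.

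CXCL11 in HT29 stood at 4.47, 4.32 and 4.58 untreated, at 5.00, 6.76 and 5.45 after OXA, and at 4.15, 4.66 and 4.40 after OXA with Curcumin. In HTOXAR3 it stood at 4.82, 4.43 and 4.45 untreated, at 5.69, 5.59 and 5.41 after OXA, and at 4.0, 4.35 and 3.83 after the combination. Again the OXA arrays did not overlap the others in either line, and HT29 OXA replicate 2 was the highest of all 18. None of its differences was called. After OXA CXCL11 was at least 2.21-fold higher in HT29 (difference 1.28, SE 0.32, adjusted p = 0.0959), and in HTOXAR3 the difference was 1.0 (adjusted p = 0.506). With Curcumin added it was at least 2.39-fold lower in HT29 (-1.33, adjusted p = 0.158) and at least 2.22-fold lower in HTOXAR3 (-1.50, adjusted p = 0.0515), the latter called with slide as a block (0.0476). Without HT29 OXA replicate 1 the HT29 differences became 1.65 (adjusted p = 0.0113) for OXA and -1.70 (0.0288) for Curcumin, both then called. Without HT29 OXA replicate 2, the highest array, they shrank to 0.77 (0.129) and -0.82 (0.201), below the bounds given for all arrays. With an offset of 50 the OXA difference in HT29 was 0.57 and with the processed signal 2.36.

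CXCL6, a ligand of CXCR1 and CXCR2, was also highest after OXA in each line. In HT29 its level was 4.20, 4.23 and 4.09 untreated, 4.74, 5.20 and 4.85 after OXA, and 4.36, 4.20 and 3.98 after the combination. In HTOXAR3 it was 4.82, 4.31 and 4.85 untreated, 5.08, 5.22 and 4.87 after OXA, and 4.44, 4.53 and 4.62 after the combination. The OXA arrays lay above the others in each line, narrowly so in HTOXAR3, where untreated replicate 3 lay just under OXA replicate 3. CXCL6 rose at least 1.5-fold with OXA in HT29 (difference 0.76, SE 0.16, adjusted p = 0.0222, limma), and the HTOXAR3 difference of 0.40 was not called (adjusted p = 1). With Curcumin added to OXA the level was at least 1.39-fold lower in HT29 (-0.75, adjusted p = 0.0589) and at least 1.43-fold lower in HTOXAR3 (-0.53, adjusted p = 0.342), neither called. The HT29 call was lost without untreated replicate 1 (adjusted p = 0.0764), 2 (0.0677) or 3 (0.111), without OXA replicate 2 (0.137) or 3 (0.0561), and with only the 6 arrays compared in the fit (0.211). It was also lost with 75th percentile scaling (0.68, 0.066) and with an offset of 50, where the difference of 0.24 was under the fold required. Its size was 0.45 with an offset of 16 and 1.71 with the processed signal, both called. The HTOXAR3 difference of 0.40 became 0.22 without untreated replicate 2.

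**Figure D1:**
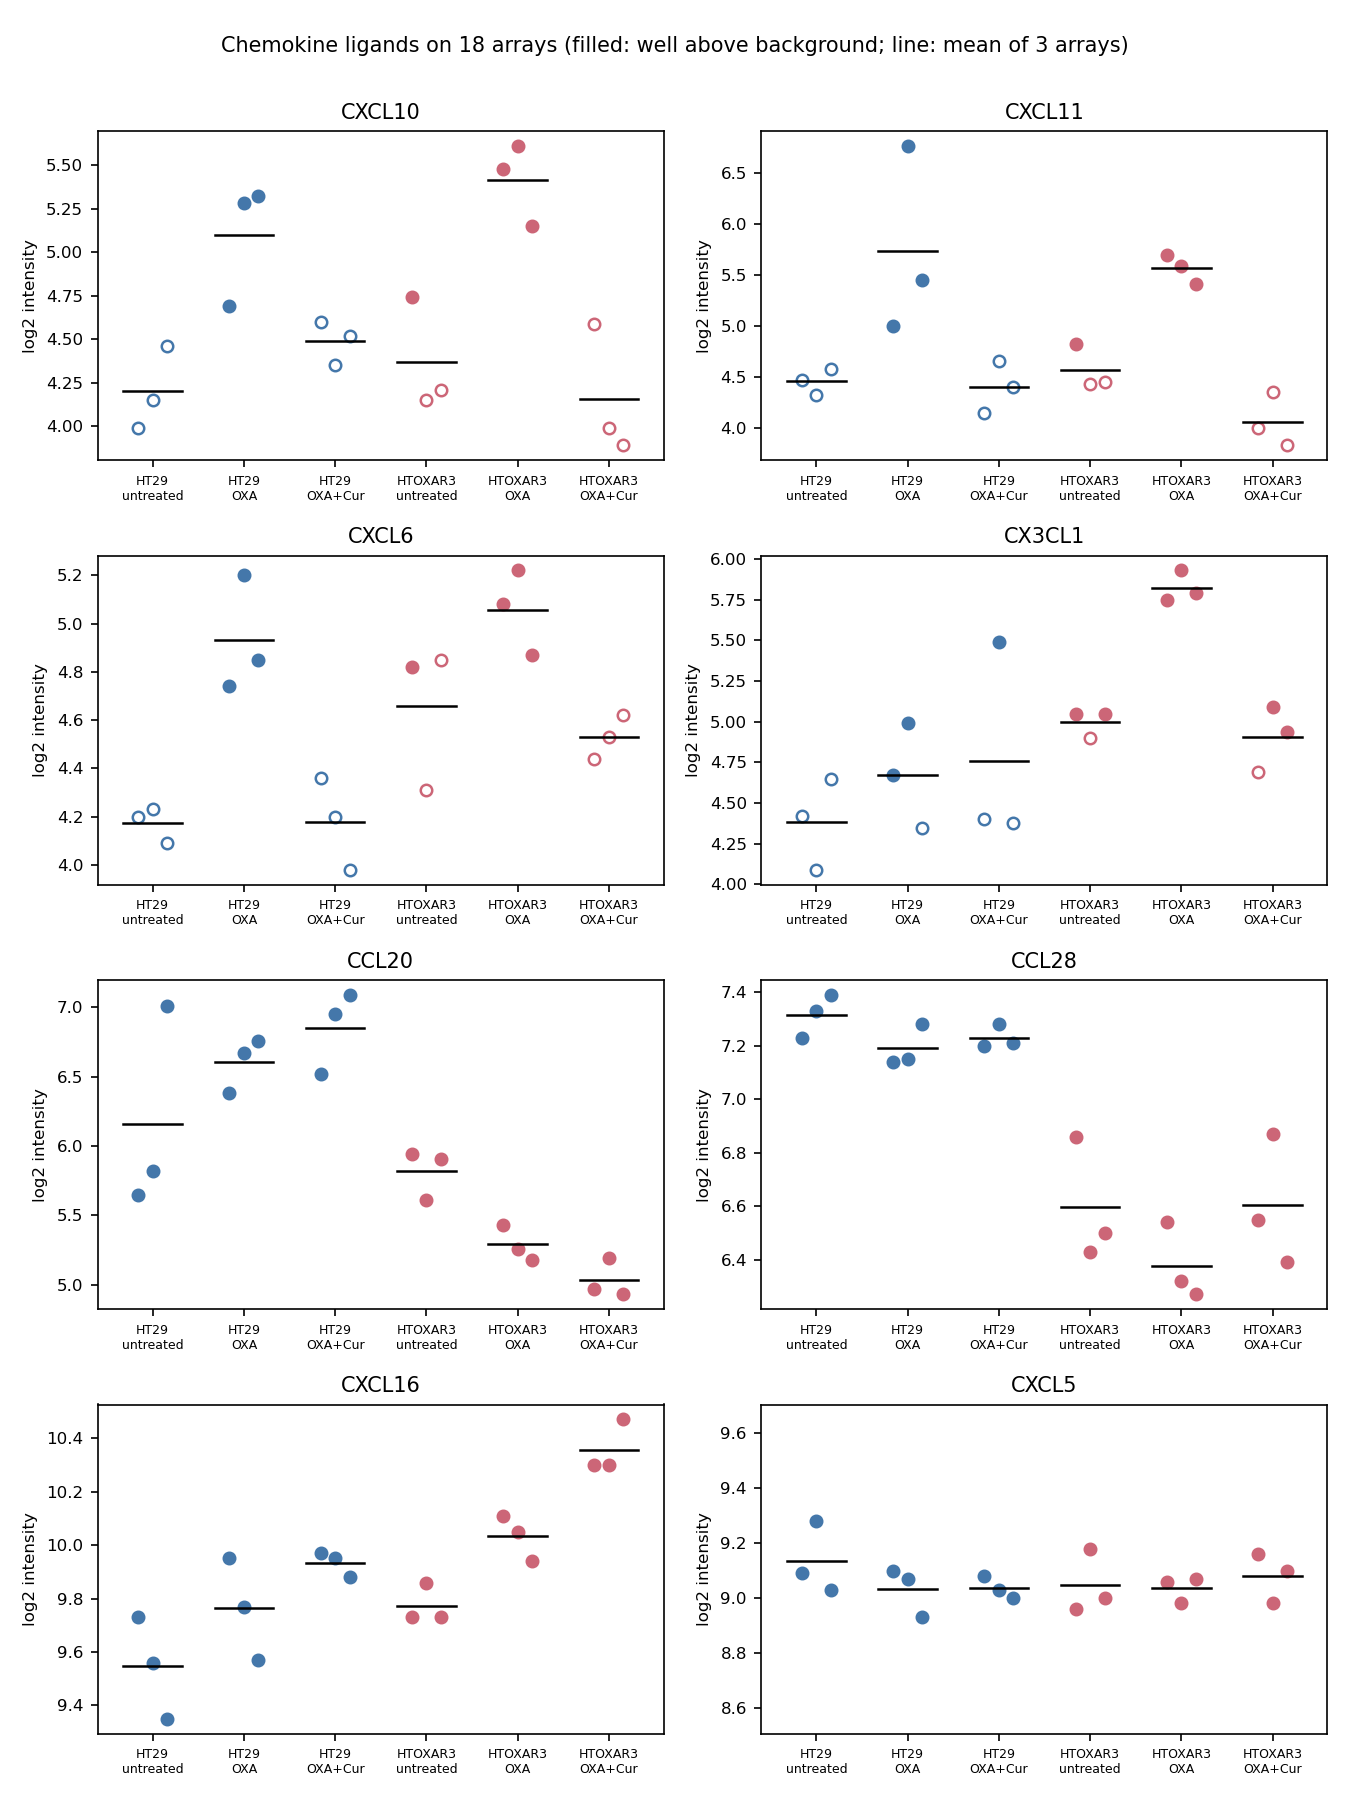
Normalised log2 intensity of each chemokine gene on each of the 18 arrays by line and treatment, each panel with its own vertical range. Filled points are well above background, open points are not, and the black line is the mean of 3 arrays. For CXCL10, CXCL11 and CXCL6 the 3 OXA arrays of each line are filled and the combination arrays are open.

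CXCL10, CXCL11 and CXCL6 were thus well above background on all 6 OXA arrays and on 0 of the 6 combination arrays. The pattern was read from these 3 genes and then counted over all names, so its frequency is a description and supports nothing about them. Of all 36204 names 5 had it (0.0138%), the others being BDH2 and LOC101928858, which are named after their values were seen. In HT29 alone, 48 names were well above background on 3 of 3 OXA arrays and 0 of 3 combination arrays (0.133%), and in HTOXAR3 161 names were (0.445%). The 7 arrays on which the 3 genes were well above background, these and HTOXAR3 untreated replicate 1, had 62.2% to 63.2% of all probes well above background, and the other 11 had 52.4% to 62.0% but for HT29 combination replicate 1, which had 63.6%. The part of this share in the pattern was not tested. Over the 18 arrays, which share groups and slides, the levels of CXCL10 and CXCL11 correlated at r = 0.819, those of CXCL6 and CXCL11 at 0.729 and those of CXCL6 and CXCL10 at 0.713. Closest identity between probes of different members was 26 of 60 bases. The arrays lay on 3 slides. Within slides that held both groups the CXCL10 difference after OXA was 0.70 to 1.12 on 3 slides in HT29 and 1.04 to 1.16 on 2 slides in HTOXAR3, and that on adding Curcumin was -1.44 to -0.90 in HTOXAR3. Within slides the CXCL11 difference after OXA was 0.53 to 2.44 in HT29 and 1.05 to 1.06 in HTOXAR3, and the CXCL6 difference was 0.54 to 0.97 in HT29 and 0.20 to 0.51 in HTOXAR3. With slide as a block CXCL6 after OXA in HT29 was 0.76 (adjusted p = 0.0422, limma). CXCL10 in HTOXAR3 was then 1.08 after OXA (0.0265) and -1.26 on adding Curcumin (0.00953). With replicate number as a block CXCL10 after OXA in HTOXAR3 was 1.04 and not called (0.0947). The CXCL6 call (0.0481) and the CXCL10 call on adding Curcumin (0.034) held with that block.

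CXCL16, a membrane-anchored ligand of CXCR6 that is also shed, was read by a pair of probes. The probe for transcript variant 1 (chr17:4637560-4637619, GRCh37) was the brighter and gave the gene's level. That level in HT29 was 9.73, 9.56 and 9.35 untreated, 9.95, 9.77 and 9.57 after OXA, and 9.97, 9.95 and 9.88 after the combination. In HTOXAR3 it was 9.73, 9.86 and 9.73 untreated, 10.11, 10.05 and 9.94 after OXA, and 10.30, 10.30 and 10.47 after the combination. The HTOXAR3 groups did not overlap, and in HT29 the untreated and OXA arrays did.

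CXCL16 rose 1.5-fold with the combination in HTOXAR3 (difference 0.58, SE 0.10, adjusted p = 0.00677, limma). It was 0.61 with slide as a block (adjusted p = 0.000491) and 0.51 to 0.66 within slides. In the same comparison CD68, a lysosomal protein used as a macrophage marker, rose by 1.44 (adjusted p = 2.07e-06) and CD14, a monocyte marker, fell by 0.55 (0.0113), and their part in the CXCL16 result was not tested. The CXCL16 call held with each of the 6 arrays left out in turn (0.53 to 0.63, adjusted p = 0.016 to 0.0488) and was lost with only the 6 arrays compared in the fit (0.0628). The same contrast in HT29 was 0.39 (adjusted p = 0.127) and was called with slide as a block (0.46, 0.00598), and the differences after OXA alone were 0.22 in HT29 and 0.26 in HTOXAR3 (SE 0.10 and adjusted p = 1 for each). That in HT29 was 0.12 without untreated replicate 3 and 0.12 without OXA replicate 1. The probe for transcript variant 2 (chr17:4637807-4637866) varied less between replicates and was called higher in 5 comparisons, an alternative added after the data were seen. Its differences were 0.49 between the untreated lines (adjusted p = 0.00137), 0.57 and 0.48 after OXA in HT29 and HTOXAR3 (0.000251 and 0.00225), and 0.63 and 0.64 after the combination (8.15e-05 and 8.24e-05). Adding Curcumin to OXA gave 0.06 and 0.16 with this probe, neither called. Both probes had every difference from untreated cells above 0.

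**Figure D2:**
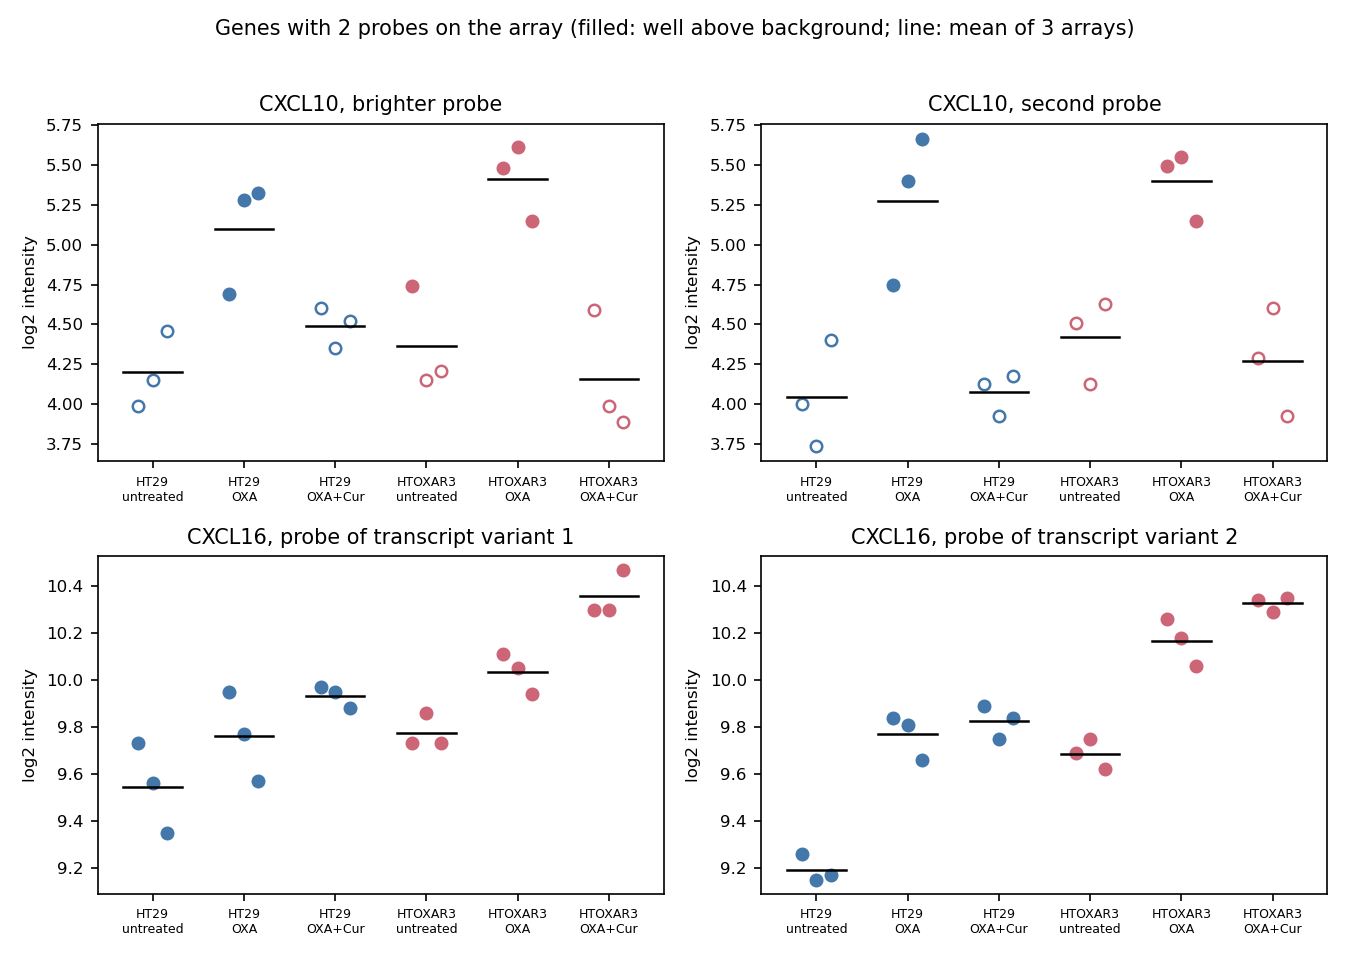
Normalised log2 intensity on each array for the probe pairs of CXCL10 and CXCL16, by line and treatment. In each line the OXA arrays are highest for each probe of CXCL10, and the group mean of each CXCL16 probe is lowest in untreated HT29.

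CCL20, the ligand of CCR6, had differences of opposite sign in the lines, none of them called. In HT29 its level was 5.65, 5.82 and 7.01 untreated, 6.38, 6.67 and 6.76 after OXA, and 6.52, 6.95 and 7.09 after the combination. In HTOXAR3 it was 5.94, 5.61 and 5.91 untreated, 5.43, 5.26 and 5.18 after OXA, and 4.97, 5.19 and 4.93 after the combination. HT29 untreated replicate 3 stood apart from its group, at the level of the treated arrays, while in HTOXAR3 every treated array lay below every untreated one. The response to the combination was 0.69 in HT29 (BY-adjusted p = 0.877) and -0.79 in HTOXAR3 (0.5). The latter passed with BH adjustment in limma (adjusted p = 0.0452). The response to OXA was 0.44 in HT29 and -0.53 in HTOXAR3 (SE 0.27, BY-adjusted p = 1 in HTOXAR3).

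The test of the difference between lines gave -1.49 for the combination (SE 0.39, unadjusted p = 0.00186, BY-adjusted p = 0.58, BH-adjusted p = 0.0524) and -0.97 for OXA (SE 0.39, unadjusted p = 0.025), so CCL20 was not shown to respond differently in the lines. These values turned on single untreated arrays of HT29. Within slides the CCL20 difference after OXA ran from -0.26 to 0.85 in HT29, changing sign, and from -0.69 to -0.35 in HTOXAR3. Without HT29 untreated replicate 3, CCL20 was called higher in HT29 after OXA (0.86, adjusted p = 0.0224) and after the combination (1.12, 0.00271), and the line difference for the combination was called (-1.91, 0.00862). Without HT29 untreated replicate 1 the HT29 differences shrank to 0.19 after OXA and 0.44 after the combination, and without replicate 2 that after OXA shrank to 0.27, none called. For CXCL1, CXCL2, CXCL3 and CXCL8, the combination response in HT29 was 1.54, 0.93, 1.45 and 1.75, each called higher, and the line difference in that response was -2.10, -2.01, -1.35 and -1.84, each called lower (adjusted p = 0.000529, 0.000549, 0.048 and 0.036).

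CCL28, a mucosal chemokine that binds CCR10 and CCR3, separated the lines whatever the treatment. Its level in HT29 was 7.23, 7.33 and 7.39 untreated, 7.14, 7.15 and 7.28 after OXA, and 7.20, 7.28 and 7.21 after the combination. In HTOXAR3 it was 6.86, 6.43 and 6.50 untreated, 6.54, 6.32 and 6.27 after OXA, and 6.55, 6.87 and 6.39 after the combination. All 9 HT29 arrays lay above all 9 HTOXAR3 arrays. Between untreated cells CCL28 was 1.65-fold lower in HTOXAR3 (difference -0.72, SE 0.13, adjusted p = 0.00871, limma), -0.76 with slide as a block (0.0224) and -0.89 to -0.68 within slides. This call was lost without HT29 untreated replicate 3 (-0.68, adjusted p = 0.0516), without HTOXAR3 untreated replicate 2 (-0.63, 0.0596) or 3 (-0.67, 0.0575), and with only the 6 arrays compared in the fit (0.284).

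CX3CL1, or fractalkine, is held on the membrane by a mucin stalk and binds CX3CR1. In HT29 its level was 4.42, 4.09 and 4.65 untreated, 4.67, 4.99 and 4.35 after OXA, and 4.40, 5.49 and 4.38 after the combination, with 0, 2 and 1 of 3 arrays well above background. In HTOXAR3 it was 5.05, 4.90 and 5.05 untreated, 5.75, 5.93 and 5.79 after OXA, and 4.69, 5.09 and 4.94 after the combination, with 2, 3 and 2 of 3 arrays well above background. In HTOXAR3 the OXA arrays lay above the rest, and in HT29 the groups overlapped. The HTOXAR3 differences of 0.82 with OXA (SE 0.25) and -0.92 on adding Curcumin (SE 0.25) passed with BH adjustment (adjusted p = 0.0354 and 0.0217) and were not called with BY (0.392 and 0.241). The line difference in the effect of Curcumin was -1.0 (SE 0.36, unadjusted p = 0.015, BY-adjusted p = 1), and -0.63 without HT29 combination replicate 2, the highest HT29 array. With an offset of 50 the HTOXAR3 differences shrank to 0.38 with OXA and -0.41 on adding Curcumin, the latter then called (0.0431).

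CXCL5, a neutrophil attractant of the same chromosomal cluster as CXCL6, was well above background on all arrays and in no comparison called. Its group means were 9.03 to 9.13, its 18 arrays spanned 8.93 to 9.28, and no difference between a pair of groups exceeded 0.10 in size. Its largest difference between lines in a response was 0.13 (SE 0.11), for the combination. CXCL14, which many resting epithelia make, was not well above background on any array, with group means of 3.22 to 3.73, so no change in it could be read.

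**Figure D3:**
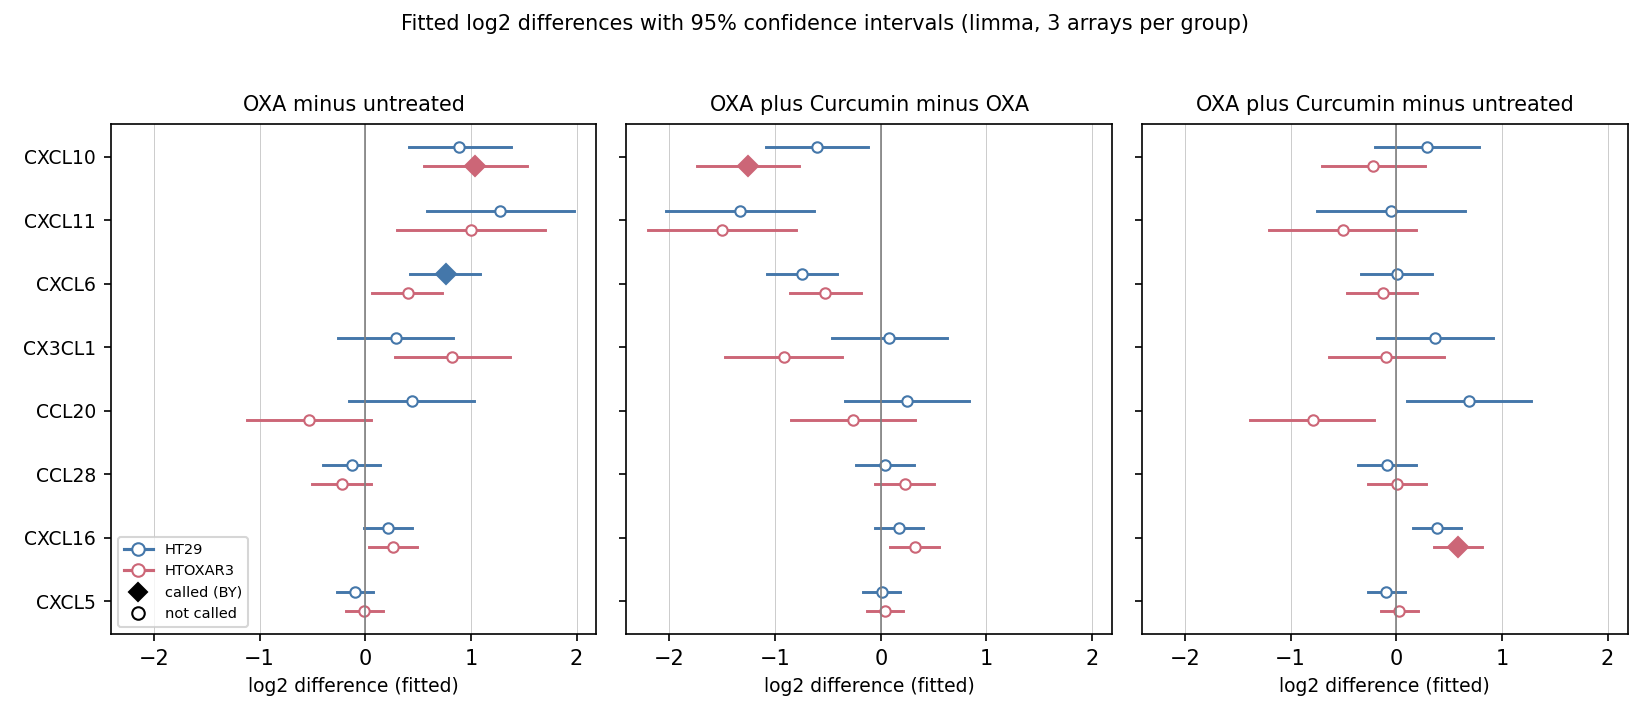
Log2 differences of the chemokine genes other than CXCL14 with 95% confidence intervals, diamonds marking called differences. The panels show, for each line, OXA against untreated, OXA with Curcumin against OXA, and OXA with Curcumin against untreated. CXCL10 and CXCL11 lie above 0 after OXA and below 0 on adding Curcumin to OXA in both lines. The intervals of CCL28 cross 0 in every panel.

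No member was called for a difference between the lines in the response to OXA (0 of 9, against 1.01% of all names), to the combination (0 of 9, against 0.854%) or to added Curcumin (0 of 9, against 0.135%). In each of the 3 tests 1 of 9 had an unadjusted p below 0.05 (against 13.6%, 14.4% and 9.73% of all names) and 0 passed with BH adjustment in limma (against 3.01%, 3.45% and 0.895% of all names). For 3 arrays a group these tests leave wide intervals, and a missed threshold does not show that the lines respond alike.

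Among 18 chemokine receptor genes 7 were well above background on at least 9 arrays. The receptors for the members described above were measured unevenly: CXCR3, CCR6 and CCR10 were above background on all 18 arrays, CXCR1 on 14, and CXCR2, CXCR6, CX3CR1 and CCR3 on 0. In the responses to treatment none of the 18 was called higher, and those called lower were 3 of 18 after OXA in HT29 (against 7.62% of all names called lower), 3 after the combination in HT29 (9.01%), 2 after the combination in HTOXAR3 (8.66%) and 0 after OXA in HTOXAR3 (4.95%), where 2 were lower with an unadjusted p below 0.05 and 2 with BH adjustment in limma, against 28.4% and 16.6% of all names in either direction. The receptor medians in these comparisons were 0.05, -0.03, -0.20 and -0.13. CXCR4, the receptor for CXCL12, fell by 1.30 after OXA in HT29 (adjusted p = 0.00061) and fell by 0.97 and fell by 0.88 after the combination in HT29 and HTOXAR3.

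Of 10 genes for enzymes that shed or trim chemokines, 5 were well above background on at least 9 arrays. DPP4, a surface protease that shortens CXCL10 and CXCL11, was lower in HTOXAR3 than in HT29 without treatment (-1.75, SE 0.08, adjusted p = 8.43e-09). DPP4 rose with the combination in HT29 (0.90) and HTOXAR3 (0.83), and with Curcumin added to OXA in HT29 (0.69, SE 0.08, adjusted p = 0.000446) and HTOXAR3 (0.79, SE 0.08, adjusted p = 8.38e-05). ADAM17, which sheds CX3CL1, rose on adding Curcumin in HTOXAR3 (0.42, adjusted p = 0.00821), and ADAM10, which sheds CX3CL1 and CXCL16, rose with the combination in HT29 (0.46) and HTOXAR3 (0.38). MMP1, a secreted collagenase, rose by 1.16 on adding Curcumin in HTOXAR3 (adjusted p = 0.013). In all, 4 of 10 rose with the combination in HTOXAR3 (against 8.83% of all names), 2 with it in HT29 (9.57%), 3 with Curcumin added in HTOXAR3 (4.43%) and 1 with it added in HT29 (3.14%). None of the 10 was called lower in these 4 comparisons, where 8.66%, 9.01%, 4.41% and 2.38% of all names were. The medians of the list were 0.38, 0.30, 0.24 and 0.25.

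Of 20 NF-kB pathway genes, 8 rose and 1 fell with OXA in HT29 (against 8.34% and 7.62% of all names), and 7 rose and 0 fell with OXA in HTOXAR3 (5.33% and 4.95%). Their median differences were 0.21 and 0.23, beside -0.01 and 0.01 over all names. NFKB2 and RELB, the subunits of the non-canonical arm, rose by 1.66 and 1.56 in HT29 (SE 0.07 each) and by 1.63 and 1.33 in HTOXAR3. With the combination 12 rose and 0 fell in each line, where 9.57% and 8.83% of all names rose. With Curcumin added to OXA, NFKB1, the precursor of a canonical subunit, fell by 0.33 in HT29 (adjusted p = 0.0165) and fell by 0.43 in HTOXAR3 (0.00154), and it was the single gene of the list called lower in each, where 2.38% and 4.41% of all names were. In HTOXAR3 IL1R1, an interleukin-1 receptor, and the inhibitor NFKBIB rose with added Curcumin, by 1.04 and 0.29, where 4.43% of all names rose, and in HT29 0 rose, where 3.14% did. There 7 of the 20 were higher at an unadjusted p below 0.05 and 1 with BH adjustment in limma, against 22.2% and 10.2% of all names in either direction.

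Of 17 interferon pathway genes, 8 rose and 0 fell with OXA in each line, against 8.34% of all names higher and 7.62% lower in HT29 and 5.33% and 4.95% in HTOXAR3. The list's medians were 0.37 in HT29 and 0.36 in HTOXAR3, beside -0.01 and 0.01 over all names. IRF9, IRF1 and STAT2, transcription factors of interferon signalling, rose by 0.92, 0.77 and 0.63 in HT29. In HTOXAR3 the kinase gene JAK2 rose by 0.70, IRF7 by 0.61 and IRF1 by 0.47. With the combination 8 rose in HT29 (against 9.57% of all names) and 7 in HTOXAR3 (8.83%), and 0 fell in either (9.01% and 8.66%). IRF7 and STAT2 were higher with Curcumin added than with OXA alone, by 0.73 and 0.35 in HT29 and by 0.57 and 0.53 in HTOXAR3, each called. USP18, an inhibitor of interferon signalling, and IFNAR2, a receptor chain for type I interferons, fell by 0.45 and fell by 0.34 in HTOXAR3 in the same comparison.

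Of 34 other chemokine genes on the array, 6 rose and 2 fell with OXA in HT29 (against 8.34% and 7.62% of all names), and 2 rose and 2 fell in HTOXAR3 (5.33% and 4.95%). With the combination 6 rose and 2 fell in HT29 (9.57% and 9.01%), and 1 rose and 3 fell in HTOXAR3 (8.83% and 8.66%). Apart from the genes that rose in HT29, these counts were near or below the shares of all names. Of those that rose with OXA in HT29, CXCL8, CXCL1, CXCL3 and CXCL2 rose by 1.89, 1.67, 1.07 and 0.56. Their OXA differences in HTOXAR3 were 0.5, 0.14, 0.07 and -0.82, with CXCL2 alone called, as lower. Without treatment they were higher in HTOXAR3 than in HT29 by 2.63, 1.48, 0.41 and 1.03, called for all but CXCL3. CCL5, a T cell attractant, rose with OXA in HT29 (0.78, SE 0.16, adjusted p = 0.0221) and HTOXAR3 (0.74, SE 0.16, adjusted p = 0.0462), and in HTOXAR3 it fell by 1.16 on adding Curcumin (adjusted p = 0.00177). CCL27, a skin chemokine that like CCL28 binds CCR10, rose with OXA in HT29 (1.58, adjusted p = 0.0146) and HTOXAR3 (1.42, adjusted p = 0.0476). On adding Curcumin 2 rose and 0 fell in HT29 (3.14% and 2.38%), and 1 rose and 2 fell in HTOXAR3 (4.43% and 4.41%).

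The names whose levels were most like each member's over the 18 arrays, among 21366 names well above background on at least 9 arrays, were found by Pearson's r as a description. They were RNF216 (0.973) and NUDT21 (0.949) for CXCL16, DNAH6 (0.962) and EIF3H (0.954) for CCL28, LOC642366 (0.927) and KIAA1033 (0.923) for CCL20, CLTCL1 (0.886) and CWF19L2 (0.866) for CX3CL1, and XLOC_005479 (0.846) and RPH3A (0.827) for CXCL5. CCL20 and CCL28 correlated at 0.793 with each other, and for both every treated HT29 array lay above every treated HTOXAR3 array.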

How the data were processed

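RNA from 18 cultures was hybridised to 1-colour Agilent arrays. The authors deposited scanner output from Feature Extraction 10.7.3.1, whose intensity values (mean signal and median background per spot) were used here unnormalised. Background was corrected with normexp (offset 0, the offset not being given in the sources used here) and control spots were left out. Arrays were quantile normalised on the intensity scale, and log2 was then taken. Spots with outlier flags were dropped, spots of a probe were averaged, and the probe with the highest mean stood for a gene. A linear model with 6 group means was fitted to all 36204 names in limma 3.58.1 (R 4.3.3), and p-values were adjusted over all names. Alternatives were another offset, the scanner's processed signal, 75th percentile scaling, all probes averaged, dim names left out, blocks for slide and replicate, fits on fewer arrays, and BH adjustment. The model fit and the calling, and not the steps before them, were tested on simulated log2 values of genes. There 26.9% of 1.5-fold, 55.2% of 2-fold and 78.8% of 4-fold changes were called.

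The named genes were the 9 members, and in each gene list up to 3 called genes of largest difference that were measured in the groups compared. Others are named where a statement needs them. The members, gene lists and tests were chosen with earlier results of these data known. Replicate numbers are shared across groups. Every same-numbered pair correlated above 0.1 in deviations from group means for OXA in HT29 (0.119 to 0.245) and for added Curcumin in HTOXAR3 (0.11 to 0.197) only, with same-numbered arrays also sharing slides. The precision is limited by 3 arrays a group, and whether replicates came from separate cultures is known only from their label. The series' table of processed values was not used here, and 1 listed receptor gene and 1 searched motif are not reported here by name. Promoters are from RefSeq (GRCh38.p14), and probe positions are on GRCh37 as the arrays' files give them.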

Additional observations from a re-analysis of the deposited data

How the results depend on the processing

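Calls among the 9 genes depended on the processing, and no named difference changed sign under these alternatives, although within single slides CCL20 after OXA in HT29 did (-0.26 to 0.85). The counts called of 9, 1 in each of 5 comparisons as described, became the following. With BH adjustment they were 2 for the basal difference, 3 for OXA in HT29, 3 for OXA in HTOXAR3, 1 and 2 for the combination in HT29 and HTOXAR3, and 2 and 4 for added Curcumin in HT29 and HTOXAR3. With a fold above 2 they were 0 for the basal difference, OXA in HT29 and the combination in HTOXAR3. With offset 50 they were 0 for OXA in HT29 and 2 for added Curcumin in HTOXAR3. The scanner's processed signal gave 3 and 2 for these. Scaling to the 75th percentile gave 0 for OXA in HT29, 0 for OXA in HTOXAR3, 1 for added Curcumin in HT29 and 2 in HTOXAR3. Averaging all probes gave 3 for OXA in HT29 and 1 for the combination there. Leaving out dim names gave 3 for OXA in HT29, 1 for the combination in HT29, and 1 and 2 for added Curcumin in HT29 and HTOXAR3. Slide as a block gave 1 for the combination in HT29 and 2 for added Curcumin in HTOXAR3. The replicate number as a block gave 0 for OXA in HTOXAR3, where CXCL10 kept a difference of 1.04 with an adjusted p of 0.0947, and changed no other call. Fitting only the arrays compared gave 0 in all 5 comparisons with a call. The other probe of CXCL10 and CXCL16, added after the data were seen, gave 2 for the basal difference, 3 for OXA in HT29, 1 for the combination in HT29 and 1 for added Curcumin in HT29. Offset 16 moved no count, although it changed the sizes of dim genes.

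With each array left out in turn, the counts ran from 0 to 1 for the basal difference, 0 to 3 for OXA in HT29, 0 to 1 for OXA in HTOXAR3, 0 to 1 for the combination in HT29, 1 to 1 for it in HTOXAR3, and 0 to 1 for added Curcumin in each line. For the line differences they ran from 0 to 0 for OXA, 0 to 1 for the combination and 0 to 0 for added Curcumin. CXCL11 on adding Curcumin in HTOXAR3 was called with the processed signal (-2.90, adjusted p = 0.0108), 75th percentile scaling (-1.61, 0.0314), dim names left out (0.0206) and slide as a block (-1.50, 0.0476). CXCL6, CXCL10 and CXCL11 were dim on 11 of 18 arrays, so several of their folds are bounds. The causes of these changes were not tested.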

Other observations

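CCL26, an eosinophil attractant that binds CCR3, is not one of the 9 genes and was singled out after its values were seen. It was well above background on 0 of 3 arrays in the untreated and in the OXA group of each line and on 3 of 3 combination arrays in each. Its level after the combination was 6.16, 6.01 and 5.31 in HT29 (mean 5.83 ± 0.46) and 8.28, 8.41 and 8.92 in HTOXAR3 (mean 8.53 ± 0.34, SD, n = 3). Every HTOXAR3 combination array lay above every HT29 one. Against untreated cells CCL26 rose at least 2.76-fold in HT29 (BY-adjusted p = 0.00181, limma) and at least 16.3-fold in HTOXAR3 (1.86e-07). Against OXA alone it rose at least 3.03-fold in HT29 (0.0103) and at least 17.3-fold in HTOXAR3 (2.43e-06). The fitted line difference in the combination response was 2.94 (SE 0.37, adjusted p = 0.00689). It rests on untreated signals not well above background in either line, so its size is no measured value. It was 2.68 to 3.23 with each array left out in turn (highest adjusted p = 0.029). That in the effect of added Curcumin was 2.51 and was not called (0.0609). The HTOXAR3 cells also had the higher OXA dose, and line and dose cannot be told apart.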
